A study of Mus with 5 samples.

Results

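Binding of the retinoic acid receptor RARα and of the AP-1 family factor BATF was examined at 10 genes of the TGF-β and SMAD pathway in mouse CD8 T cells. The genes were Tgfb1, Tgfbr1, Tgfbr2, Smad2, Smad3, Smad4, Smad7, Ski, Skil and Tgif1, out of 21900 protein-coding genes in the RefSeq table used here. A peak was assigned to one of them when the authors' annotation of that peak listed its symbol, alone or among several genes. This gave 79 of 27480 peaks over 4 lists, with 3 of 1172 peaks for RARα without RA, 1 of 597 for RARα with RA, 49 of 15812 for BATF without RA and 26 of 9899 for BATF with RA.

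TGF-β is secreted in a latent form and, once released, binds the type II receptor, which phosphorylates the type I receptor. The type I receptor phosphorylates the receptor-regulated SMADs, which join the common SMAD4, enter the nucleus and act on genes together with other DNA-binding factors, AP-1 proteins among them. Inhibitory SMAD7 blocks the receptor, and the corepressors SKI, SKIL (SnoN) and TGIF1 restrain SMAD complexes on DNA. In CD8 T cells the pathway is known for holding back effector function and for promoting tissue residence.

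Chromatin immunoprecipitation with sequencing (ChIP-seq) recovers the DNA fragments that an antibody pulls down with its protein, and a peak is a place where those fragments pile up over a control made with normal rabbit IgG. The cells were primary wild-type spleen CD8 T cells, labelled as naive, that had been stimulated for 24 h through CD3 and CD28 with IL-2 and rested for 24 h in 100 U/ml IL-2. For the last 1 h the culture held either no added RA (control) or 50 nM RA, retinoic acid, the ligand of RARα. The treatment labels name different interleukins (IL-7 to IL-10) for different samples, where the growth protocol names IL-2, and they do not say whether the cells for IgG received RA.

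Each list was called on 2 ChIP files pooled by the authors, against the same IgG file of 11410673 fragments. The sources used here do not say if those 2 files came from separate cultures or from repeated sequencing. The pools held 22655611 and 22475060 fragments for RARα (control and RA) and 23110180 and 16424269 for BATF, so that the BATF pool with RA had 71.1% of the control depth. The calling threshold on the p-value was looser for RARα (0.001) than for BATF (1e-05). With 1 list per condition there is no spread between replicates and no test between conditions, and the 95% confidence intervals given cover counting error only. Peak lists hold no expression values, so the labelled cell type could not be checked against its markers.

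BATF peaks lay at all 10 genes in the control list and at 9 of 10 with RA, the exception being Tgfbr1. Over all protein-coding genes, 48.6% were named by a BATF control peak and 38.3% by a BATF peak with RA. All 10 genes had a BATF peak of the promoter class in the control list, against 37.9% of all genes. With RA, 6 of 10 had such a peak (Tgfb1, Tgfbr2, Smad2, Smad3, Smad7 and Tgif1), against 27.8% of all genes. The step from 10 to 6 promoter-bound genes may be read against 71.7%, the share of all genes with a promoter-class control peak that also had one with RA, and the step from 10 to 9 genes with any peak against 76.5%. RARα peaks were few, at Ski and Smad3 in the control list (2 of 10 genes, against 7.18% of all genes) and at Smad3 with RA (1 of 10, against 3.19%).

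**Figure D1:**
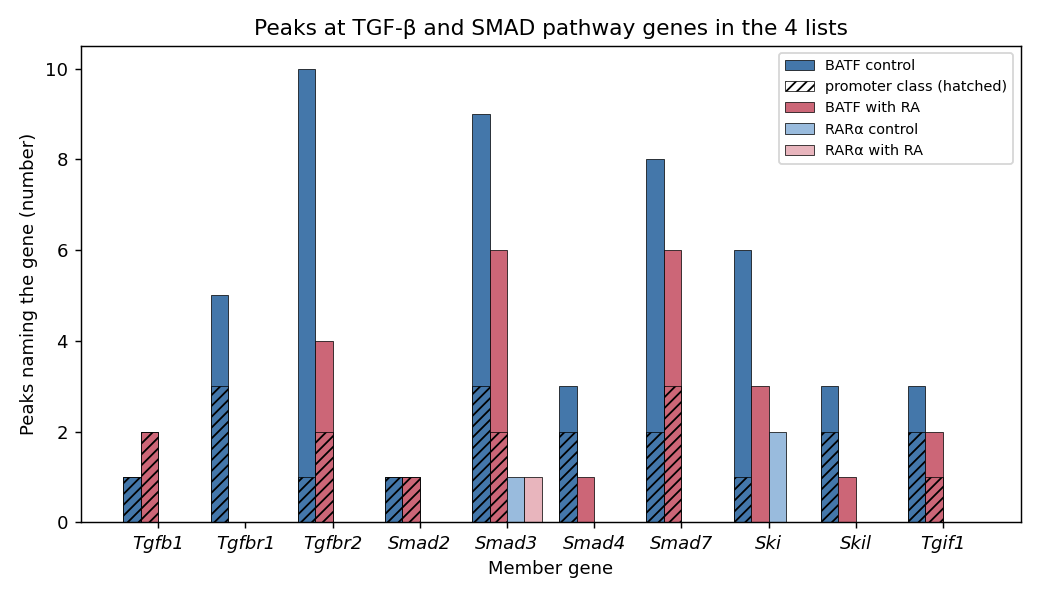
Number of peaks naming each of the 10 genes (vertical axis) in the BATF and RARα lists, control in blue and RA in red, with the promoter-class peaks of BATF hatched. Tgfbr2, Smad3 and Smad7 have 10, 9 and 8 BATF control peaks, Tgfbr1 has 5 in control and 0 with RA, and Tgfb1 alone has more peaks with RA (2) than without (1).

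The BATF control peaks were unevenly spread. Among the 10654 genes with any BATF control peak the median number was 1. Tgfbr2 had 10 peaks, and 1.21% of those genes had as many or more. Smad3 had 9 (1.79%), Smad7 had 8 (2.61%), Ski had 6 (5.92%) and Tgfbr1 had 5 (9.51%). Skil, Smad4 and Tgif1 had 3 peaks each, and Tgfb1 and Smad2 had 1 each. The 3 genes with most peaks therefore hold 27 of the 49, and gene length was not taken into account.

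Tgfb1 encodes the ligand. The gene lies at chr7:25687002-25705077 (mm10), and its BATF control peak, chr7:25686464-25690112, covered the start of the gene and a CpG island over 3649 bp. The summit held 74 fragments, which is 3.20 fragments per 1000000 fragments of the pool (FPM). Its fold enrichment over IgG, as the authors' peak caller gives it, was 7.41, and the local IgG level there was 3.15 times the genome-wide background. With RA, 2 narrower peaks stood inside the same span, chr7:25687401-25688359 with a fold of 3.26 (21 fragments) and chr7:25689023-25689982 with a fold of 3.17 (25 fragments). The summit of the second lay 87 bp from the control summit, at 1.52 FPM. The RA to control ratio in FPM was thus 0.475 (exact conditional binomial 95% interval 0.289 to 0.757), below 1 by more than counting error. In the table of RA to control fold ratios at nearest peaks, Tgfb1 had the lowest, 0.440 with the first of the 2 RA peaks. Within 10 kb of Tgfb1 lay 2 more BATF peaks in each condition that the annotation gives to the neighbouring gene B9d2. Their folds were 6.64 and 3.95 in control and 4.14 and 2.98 with RA.

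The type I receptor gene Tgfbr1 (chr4:47353222-47414926) had 5 BATF peaks in control and none with RA. Its strongest, chr4:47352557-47353457, covered the transcription start with 29 fragments and a fold of 5.33. The other two of the promoter class, one 1574 bp outside the gene in a B3A SINE repeat and one in its first intron, had folds of 3.92 and 4.08 with 16 fragments each. The remaining pair, 38637 and 33369 bp away, had folds of 4.32 and 4.73 and lay closer to Col15a1 (1171 and 6386 bp). All 5 would have reached the p-value cutoff in the RA pool had their level in FPM stayed the same. For the peak over the start site, 13 fragments would have been needed at the RA depth and 20.6 were expected. For the other 4 the margin was smaller, with 11.4 to 14.9 fragments expected against 11 or 12 needed. The nearest BATF peak with RA lay 10664 bp or more from each of them. The listed RA peaks on either side carry consecutive numbers, so no skipped number falls at Tgfbr1. A list of called peaks gives no value at a place without a call, so the RA level at Tgfbr1 is not known beyond the missing call.

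Tgfbr2, the type II receptor gene (chr9:116087695-116175363), had 10 BATF control peaks and 4 with RA. The promoter peak chr9:116173484-116176113 spanned a CpG island, with 56 fragments and a fold of 5.12 in control. With RA, 2 peaks stood in that span, and the one of nearest summit, chr9:116174818-116175966, had 31 fragments and a fold of 3.32. This is 2.42 FPM in control and 1.89 FPM with RA, a ratio of 0.779 with an interval (0.485 to 1.23) that holds 1. The highest fold at Tgfbr2 in control was 6.18, at the intron peak chr9:116138828-116139113 with 24 fragments, and no BATF peak with RA lay within 5 kb of it, although 17.1 fragments would be expected at an unchanged level and 11 were needed. The highest fold with RA was 7.48, at chr9:116212125-116212576, an intergenic site 36762 bp from the gene in an RMER5 LTR element. That site had 28 fragments in each condition and a control fold of 4.09. Its fold ratio, 1.83, was the highest of all overlapping pairs at the 10 genes, while the FPM ratio was 1.41 with an interval of 0.803 to 2.47. The local IgG level was 2.10 times background at the control summit and 1.42 at the RA summit. Of the 10 control peaks 6 had no RA peak within 5 kb, 4 of them in introns and 2 intergenic, with folds between 3.50 and 6.18.

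The receptor-regulated SMAD genes differed in how much BATF signal they held. Smad2 (chr18:76241090-76311748) had a single BATF peak at its promoter in each condition. It held 34 fragments with a fold of 4.94 in control and 24 fragments with a fold of 4.70 with RA. These are 1.47 and 1.46 FPM, a ratio of 0.993 (0.564 to 1.72). In FPM the values stood closest to each other among the 20 overlapping pairs, and the interval covers both a lower and a higher level with RA.

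Smad3 (chr9:63646766-63757994) carried the strongest BATF peak of the 10 genes. In control it spanned chr9:63737290-63739084, in the first intron, with its annotation in an MTEa LTR repeat. It had 85 fragments at the summit and a fold of 13.0, percentile 94.6 of its list. With RA the peak was chr9:63738193-63738711, with 73 fragments and a fold of 14.8 (percentile 96.3), its summit 6 bp from the control summit. The level was 3.68 FPM in control and 4.44 FPM with RA, a ratio of 1.21 (0.872 to 1.67). The promoter peak chr9:63756247-63758912, which covers exon 1, had a fold of 8.50 in control and 6.60 with RA, with an FPM ratio of 0.704 (0.396 to 1.22). Every one of the 9 Smad3 control peaks had an RA peak of BATF inside the 5 kb distance, and 5 overlapped one. At those 5 overlapping pairs the fold was higher with RA at 2 and lower at 3, and every interval held 1. The highest fold ratio in the table of nearest peaks, 3.18, was also at Smad3. There the control peak chr9:63732611-63733281 (fold 4.66) was matched with the strong intron peak 4912 bp away, a different site.

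Smad3 also held the only RARα peak of the 10 genes in both conditions. The control peak chr9:63716053-63716443 lay in the first intron with 20 fragments, a fold of 4.22 and a -log10 p-value of 8.77. With RA the peak was chr9:63716233-63716545, with 26 fragments, a fold of 4.56 and a -log10 p-value of 11.4. The level was 0.883 FPM in control and 1.16 FPM with RA, a ratio of 1.31 (0.704 to 2.48), so a change was not detectable at this depth. By fold the peak ranked 201 of 1172 in control and 40 of 597 with RA. Its fold ratio was 1.08. In the whole RARα control list 120 peaks could be matched to an RA peak in this way, of which 38 had a ratio above 1 and 32 a higher one than Smad3. The nearest BATF peak lay 3237 bp away in control and 4958 bp away with RA, and neither overlapped it.

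**Figure D2:**
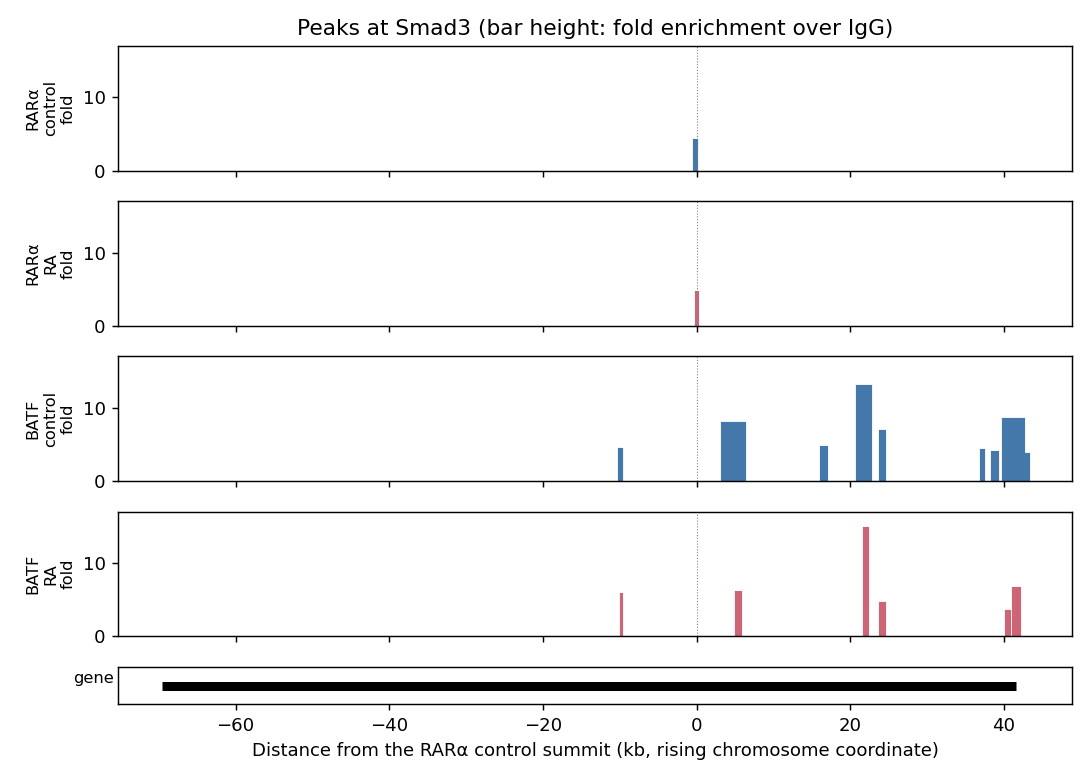
Peaks at Smad3 in the 4 lists, by distance in kb from the RARα control summit, with bar height giving fold enrichment over IgG and bar width the extent of the peak. The RARα peak is called in both conditions at folds of 4.22 and 4.56, and the highest BATF bar, 13.0 in control and 14.8 with RA, stands at the same place in both lists, apart from the RARα peak.

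Smad4, the common SMAD (chr18:73634790-73703791), had a pair of BATF control peaks at its promoter, at chr18:73702192-73703227 (fold 5.44, 23 fragments) and chr18:73703578-73704162 (fold 6.18, 24 fragments). Neither had a BATF peak with RA nearby, and the nearest was 111170 bp from the stronger of them. At an unchanged level 16.3 and 17.1 fragments would be expected at the RA depth, where 11 were needed. The third control peak, chr18:73541686-73542065, is intergenic and 92725 bp from Smad4, with Mex3c closer (30572 bp). It had a fold of 4.35 in control and 5.29 with RA, an FPM ratio of 1.32 (0.607 to 2.85). With RA, Smad4 was thus named only by a peak that lies closer to another gene.

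Smad7, the inhibitory SMAD (chr18:75367365-75395935), had 8 BATF peaks in control and 6 with RA. The strongest control peak, chr18:75366461-75368245, lay at the promoter with 34 fragments and a fold of 7.52. With RA, 2 small peaks overlapped it. The one with the nearer summit, chr18:75367424-75367829, had 15 fragments and a fold of 4.57, an FPM ratio of 0.621 (0.314 to 1.17). The RA peak of highest fold, 6.97, was chr18:75369790-75370087 in the first intron. It lay inside a control peak of 5317 bp, chr18:75369072-75374388, that overlapped 3 RA peaks, so part of the RA count comes from wide control peaks that the RA list splits. An intergenic peak 13336 bp from the gene had 42 fragments in control and 32 with RA, which is 1.82 and 1.95 FPM. The 4 control peaks without an RA peak within 5 kb were all intergenic, between 14307 and 30339 bp from Smad7, with folds from 4.32 to 5.76. Of these, the 3 on the side of Ctif are listed for both genes, and the most distant from Smad7 lay 4620 bp from Ctif.

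The corepressor gene Ski (chr4:155154075-155222535) was named by peaks of both factors in control, those of RARα being weak. Its strongest BATF peak, chr4:155200676-155201475, lay in an ORR1D1 LTR element of the first intron, with 46 fragments and a fold of 9.60. With RA that peak had 25 fragments and a fold of 5.65, an FPM ratio of 0.765 (0.450 to 1.27). Of 6 BATF control peaks 3 were called with RA, all in the first intron, and all 3 had lower folds with RA, at ratios of 0.589, 0.728 and 0.830. Their FPM intervals all held 1. The peaks without an RA peak within 5 kb were the promoter peak chr4:155220283-155222378 (fold 3.81), an intron peak at chr4:155162491-155162913 (fold 5.27) and an intergenic peak 3340 bp from the gene (fold 5.04).

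RARα peaks were called at 2 places in the Ski intron in control, both overlapping a BATF control peak. At chr4:155162613-155162879 there were 13 fragments, a fold of 2.95 and a -log10 p-value of 4.42. At chr4:155178364-155178852, in a B3 SINE repeat, there were 11 fragments, a fold of 3.02 and a -log10 p-value of 4.18. Both were in the lower part of the control list by fold (percentiles 37.0 and 39.2), the smallest summit of that list being 9 fragments. Neither reached a q-value of 0.05. Their -log10 q-values were 0.289 and 0.187, against 3.97 at the Smad3 control peak, so both calls rest on the looser p-value threshold and may be false. Neither had a listed RARα peak with RA nearby, the nearest being 33246388 bp from the first of them. The peak numbers of that list skip 10 values between the last listed peak before Ski and the next listed peak, on another chromosome, so whether RARα was called at Ski with RA is not known from the list used here. At an unchanged level 12.9 and 10.9 fragments would be expected in the RA pool, against 11 and 9 needed, a margin of about 2 fragments. Of the BATF peaks that overlapped them, chr4:155162491-155162913 (31 fragments) had no BATF peak with RA within 5 kb, where 22.0 fragments were expected and 14 needed. The other, chr4:155178044-155178726, had a fold of 6.52 in control and 4.75 with RA (chr4:155178204-155178583), an FPM ratio of 0.616 (0.304 to 1.19).

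**Figure D3:**
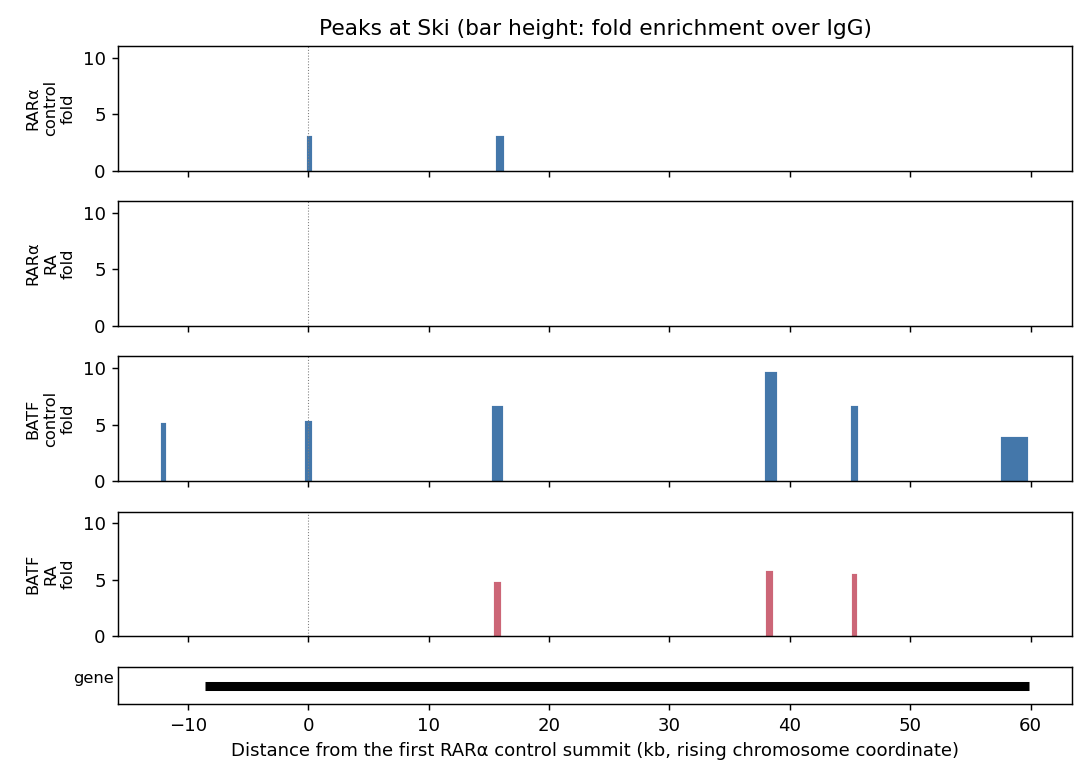
Peaks at Ski in the 4 lists, by distance in kb from the first RARα control summit, with bar height giving fold enrichment over IgG and bar width the extent of the peak. The 2 RARα control peaks stand at BATF control peaks, no RARα peak is listed with RA, and 3 of 6 BATF peaks remain with folds of 4.75 to 5.65.

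Skil, a close relative of Ski, had 3 BATF peaks in control and 1 with RA. The strongest, chr3:31060665-31061776, lay 33282 bp from Skil (chr3:31095058-31122923) and 7925 bp from Prkci. It had 35 fragments and a fold of 9.21 in control, and 31 fragments and a fold of 10.6 with RA. The FPM ratio was 1.25 (0.743 to 2.08). The pair of promoter peaks, chr3:31094343-31094725 and chr3:31095715-31096030, had folds of 2.67 and 2.87, among the lowest 2% of the control list, over an IgG level 3.15 times background. They were not called with RA, and at the RA depth an unchanged level would not have sufficed, with 18.5 and 19.9 fragments expected against 20 needed. A fall at the Skil promoter could therefore not be told from an unchanged level at this depth.

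Tgif1, a homeodomain corepressor gene (chr17:70844205-70853532), had 3 BATF peaks in control and 2 with RA. The promoter peak chr17:70848817-70853669 was 4853 bp wide, with 77 fragments and a fold of 12.8. With RA it spanned chr17:70849234-70853929, almost the same width, with 33 fragments and a fold of 7.39. The summits lay 8 bp apart, at 3.33 FPM in control and 2.01 FPM with RA. The ratio of 0.603 (0.388 to 0.918) was below 1 by more than counting error. The second promoter-class peak, chr17:70847021-70848271 (fold 4.94), had no overlapping RA peak but lay within 5 kb of that same RA peak. The last peak, 71223 bp from the gene, had folds of 2.88 and 2.81.

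Across the 10 genes, 27 of 49 BATF control peaks had an RA peak within 5 kb (55.1%, Wilson 95% interval 41.3 to 68.1), against 69.9% of the whole control list, a value just outside the interval. That interval counts each peak as a separate draw, although many lie at the same gene, so it may be too narrow. The whole list also held more promoter peaks (58.7%, against 36.7% at these genes), the class it kept most often. By class the kept share was 10 of 18 promoter peaks (55.6%, whole list 74.3%), 11 of 16 intron peaks (68.8%, whole list 64.5%) and 6 of 15 intergenic peaks (40.0%, whole list 62.3%). The intron peaks were thus kept about as often as in the whole list, 9 of these 11 at Smad3 or Ski. All 26 BATF peaks with RA had a control peak within 5 kb (100%, 87.1 to 100), against 96.3% of the RA list. All 26 also overlapped one, against 93.6% of the RA list, a value inside the same interval. No site at these genes was thus called with RA alone, which is rare in the whole list too. The peaks kept had folds of 2.88 to 13.0 and those not kept 2.67 to 6.18, and the median folds were 5.12 and 4.52 (6.04 and 4.55 over the whole list).

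The BATF pool with RA was shallower than the control pool, for these genes and for the whole list alike, and its part in the difference between them was not tested beyond the following recount. Of the 49 control peaks 45 would have passed the cutoff at the RA depth at an unchanged level, and 27 of those were kept (60.0%, 45.5 to 73.0), against 71.6% of such peaks in the whole list, a value inside the interval, near its upper end. Of the 22 peaks not kept, 18 would have passed (81.8%, whole list 88.1%). The other 4 would not, namely the Skil promoter pair and a pair in Tgfbr2 introns with 10.7 and 9.95 fragments expected against 11 needed. The expected number takes no account of scatter or of the minimum width of a peak, so a share of the 18 with a narrow margin could be missed by counting error. At none of the 22 places did the list with RA skip a peak number. The margin of the 18 ranged from less than 1 fragment, at Tgfbr1 and Smad7, to 8 fragments, at the Ski intron peak.

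**Figure D4:**
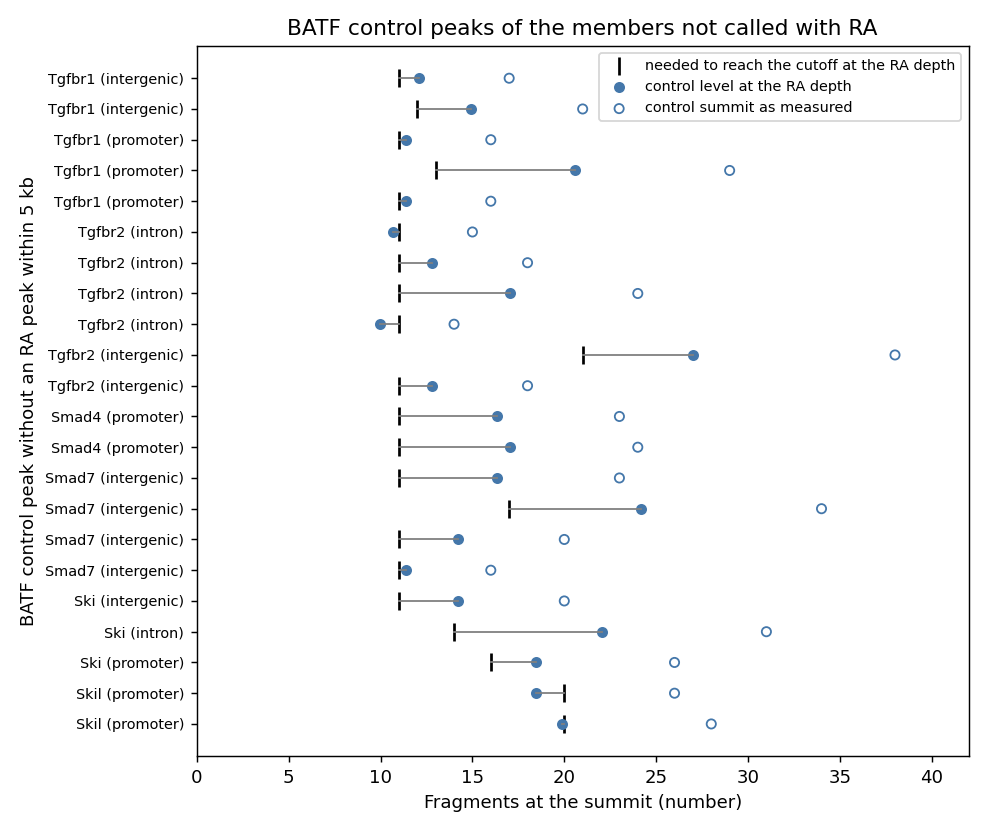
The 22 BATF control peaks without an RA peak within 5 kb, 1 row each by gene and class, with fragments at the summit on the horizontal axis. Open circles show the control summit as measured, filled circles the number expected at the RA depth at an unchanged level, and ticks the number needed for a call. The filled circle lies left of the tick for 4 peaks, at Tgfbr2 and Skil, and right of it for 18.

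Where peaks of both conditions overlapped, levels could be compared directly. At 14 of 20 pairs the fold was lower with RA (70.0%, 48.1 to 85.5), against 75.5% of all overlapping BATF pairs. The median fold ratio was 0.804 (whole list 0.829), and the median FPM ratio was 0.853 (whole list 0.844). The interval of the FPM ratio lay below 1 at 2 of the 20 pairs, Tgfb1 and Tgif1, and above 1 at none, while 7.70% of all pairs lay below 1 and 0.325% above. These 20 pairs thus stood near the background of the list in level, and the promoters of the ligand and of Tgif1 were the places where the interval lay below 1. Control peaks without an overlapping RA peak have no RA level here, so the comparison covers only sites called in both conditions. Tgfbr1 had no such pair, and those of Smad4 and Skil were intergenic and closer to other genes. The Tgif1 interval (0.388 to 0.918) holds the whole-list median of 0.844, so its lower value could not be told from that of the list. The Tgfb1 interval (0.289 to 0.757) lay below that median, at 1 pair picked out of 20.

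**Figure D5:**
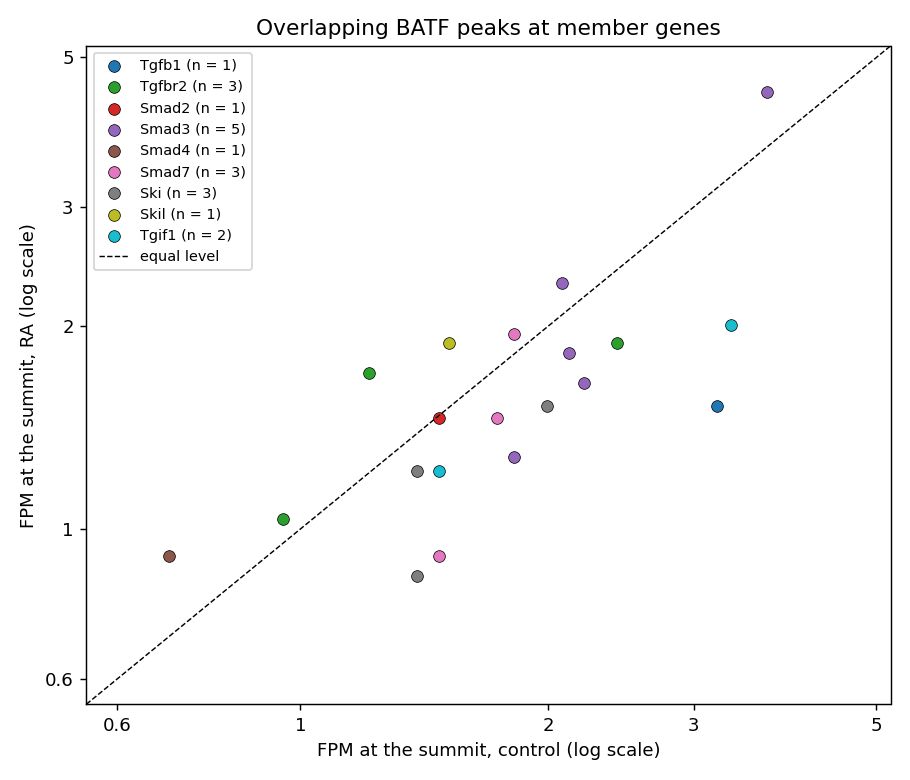
Fragments at the summit per 1000000 fragments of the pool (FPM) in control (horizontal) and with RA (vertical), both on log scales, for the 20 overlapping BATF pairs, coloured by gene. Points below the dashed line of equal level are lower with RA, and Tgfb1 (3.20 and 1.52) and the upper Tgif1 point (3.33 and 2.01) lie farthest below it, while the strongest Smad3 point (3.68 and 4.44) lies above.

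The classes of the BATF peaks at these genes differed from those of the list. Promoter peaks made up 18 of 49 in control (36.7%, whole list 58.7%), intron peaks 16 (32.7%, whole list 20.1%) and intergenic peaks 15 (30.6%, whole list 18.1%), with no exon peak. With RA the numbers were 11, 9 and 6. In fold the peaks were ordinary, with a median of 4.94 in control (whole list 5.40) and 5.02 with RA (whole list 5.29). In control 31 peaks touched the gene they were assigned to, 18 lay outside and 14 of these over 10 kb away, at up to 92725 bp. Of the 49 peaks 11 were also listed for another gene, and for 7 of them the other gene was closer. With RA 19 peaks touched the gene and 7 lay outside.

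RARα and BATF were near each other at all 4 RARα peaks of the 10 genes. In control all 3 RARα peaks had a BATF peak within 5 kb, against 61.9% of the RARα control list, and the 2 at Ski overlapped it. With RA the 1 RARα peak, at Smad3, had a BATF peak within 5 kb, against 16.4% of the RA list, at the far end of that distance. Of the 3 control RARα peaks 1 was kept with RA, against 10.2% of the list. Seen from BATF, 3 of 49 control peaks (6.12%, whole list 7.16%) and 1 of 26 with RA (3.85%, whole list 1.22%) had a RARα peak within 5 kb. With 3 peaks and 1 peak these shares rest on too few sites to be set against the lists.

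Another 59 genes of the pathway, from ligands to response genes, were counted in the same way. BATF control peaks named 34 of them (57.6%, against 48.6% of all genes) and BATF peaks with RA 26 (44.1%, against 38.3%), with 25 named in both. Promoter-class peaks lay at 27 of the 59 in control and 19 with RA, against 37.9% and 27.8% of all genes. Of the 27, 18 also had one with RA, against 71.7% over all genes with such a control peak. Of their 82 control peaks 57 were kept (69.5%), close to the 69.9% of the list. At 3 of the 25 peaks not kept the list with RA skips a peak number, so whether BATF was called there with RA is not known. The counts with RA may therefore be low. Regulators of receptors or SMADs, such as ubiquitin ligases and adaptor proteins, were named most often among the larger groups, at 14 of 17 genes in control and 12 with RA, and kept 26 of 32 peaks. Ligands and proteins that store or release them were named at 6 of 15 and 4 of 15 genes and kept 7 of 17 peaks. Receptors and co-receptors were named at 4 and 3 of 11 genes, the other SMADs at 3 and 1 of 4, the nuclear cofactors at 3 and 3 of 3 and the response genes at 4 and 3 of 9. Among the SMADs, Smad1 and Smad5 of the BMP branch had promoter-class peaks in control, with 20 and 19 fragments at the strongest, and no peak with RA. Smad4 likewise had no promoter-class peak with RA, while Smad2, Smad3 and Smad7 had one in both lists. Smad9, also of the BMP branch, had an intergenic peak in both lists, with folds of 10.6 in control and 10.2 with RA. For Smad1 and Smad5 the number of fragments needed at the RA depth is not given here.

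The largest number of BATF control peaks among these 59 genes was at Id3, a response gene that encodes an inhibitor of bHLH factors, with 7 in control and 5 with RA. Its highest fold was 11.5 in control and 12.4 with RA, at a site 47676 bp from the gene. Ltbp3 (a latent TGF-β binding protein), Acvr1b (an activin type I receptor) and Tab2 (an adaptor of the kinase TAK1) had 5 control peaks each and 2, 4 and 3 with RA. Their highest folds were 8.59, 10.7 and 8.56 in control and 7.62, 9.92 and 7.99 with RA. The Acvr1b site was in an intron in both lists. The Ltbp3 and Tab2 sites were intergenic in both, at 90809 and 80432 bp from the gene in control. Whether other genes lay closer to those sites was not examined.

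RARα control peaks named 6 of the 59 genes (10.2%, against 7.18% of all genes), with 8 peaks, and RARα peaks with RA named 1. None of the 8 was of the promoter class (whole list 19.5%) and none had a listed RA peak of RARα within 5 kb (whole list 10.2%), counts too small to be told from those shares. At the Id3 peak the list with RA skips 10 peak numbers, as at Ski, so whether RARα was called there with RA is not known. Lrrc32, which encodes GARP, a cell-surface carrier of latent TGF-β, had 3 peaks, the strongest (fold 4.40) 32661 bp away. That one lay 28171 bp from the nearest BATF control peak. The others, chr7:98489152-98489740 and chr7:98564718-98565072, each overlapped a BATF control peak. Acvr1b was named by the peak of highest fold, 5.23, at chr15:101258374-101259133, 44690 bp from the gene. That peak was intergenic and overlapped a BATF control peak, and whether another gene lay closer to it was not examined. Ep300, the gene of the histone acetyltransferase p300, had an intron peak with a fold of 3.28, and Bmpr1b an intron peak with a fold of 3.09. The peaks at Acvr2a (fold 2.83) and Id3 (fold 2.44) lay 87501 and 61479 bp away, and the one at Id3 overlapped a BATF peak. Those at Ep300, Bmpr1b and Acvr2a had no BATF control peak within 5 kb. With RA the 1 peak was in an intron of Crebbp, the gene of the related acetyltransferase CBP, at chr16:4141530-4141822 with 9 fragments and a fold of 2.53.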

How the data were processed

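The 4 ChIP-seq peak lists were used as deposited. Their peak numbers skip 121 and 130 values for RARα (control and RA) and 416 and 257 for BATF, and peaks of those numbers were not analysed here. Numbers run along the genome, so skips between the RA peaks flanking a control peak could be counted. The authors aligned reads with Bowtie2 to mm10, called peaks with MACS 2.2.7.1 on 2 pooled files per list against 1 IgG file, and annotated them with HOMER, the versions of Bowtie2 and HOMER not being given in the sources used here. The deposited pileup is a signal, the fragments at the summit (in steps of 0.9875 in the BATF control list). The deposited fold enrichment is a ratio, in which 1 is added to the pileup and to the local IgG level before division. The deposited p-values and q-values are on the -log10 scale.

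The genes and lists were chosen with earlier results of these data known. Named were all 10 genes, each one's peak of highest fold in each list, every RARα peak, the pairs of extreme fold ratio and, of 59 other pathway genes, those with a RARα peak or the most BATF control peaks (4, since 3 tied at 5 peaks). Smad1, Smad5 and Smad9 were named after their values were seen. A peak was kept when a peak of the other condition lay within 5 kb, after the study's methods. Shares have Wilson and ratios exact conditional binomial 95% intervals, for counting error only. The Poisson p-value was recomputed from fragments and IgG and came within 1 of the deposited -log10 value for at least 99.8% of peaks in each list, and was used to find the fragments needed at the other depth. Gene positions came from RefSeq on GRCm38.p6, the assembly of mm10. The work used pandas 2.3.3, scipy 1.17.1 and numpy 2.4.6 under Python 3.11.15, with matplotlib 3.10.9, and the overlap and interval steps were tested on simulated data. Alternatives were other thresholds, gene assignments, distances and pairings. Motif content was not analysed, since no genome sequence was used here.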

Additional observations from a re-analysis of the deposited data

Results flagged for a closer look

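At Smad3 the factors stood on opposite sides of 1. The fold ratio of RA over control was 1.08 at its RARα peak, while the median ratio over its 9 BATF control peaks, each with the nearest RA peak, was 0.880. With 1 list per condition the difference between the factors was not tested. The RARα ratio in FPM (fragments per 1000000 of the pool) had an interval of 0.704 to 2.48, and the 9 BATF ratios ranged from 0.672 to 3.18, with 4 above 1. Those 9 ratios used only 6 distinct RA peaks, and only 5 of the control peaks overlapped their match. At those 5 the ratios ranged from 0.672 to 1.31. The value of 3.18 compared different sites, 4912 bp apart, so the median of 0.880 mixes sites.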

How the results depend on the processing

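Of 74 values recomputed under alternatives, 53 stayed within the limits set for them, 20 moved and 1 turned its direction. RARα counts depended most on the threshold. In control the peaks at the 10 genes went from 3 to 1 at a p-value of 1e-05, to 1 at a q-value of 0.05 and to 0 at a fold of 5, the genes with a peak from 2 to 1, 1 and 0, and the other pathway genes with a peak from 6 to 3, 2 and 1 (3 when only peaks within 10 kb of the gene were counted). With RA the peak and the gene, at Smad3, went from 1 to 0 at a fold of 5, and the other pathway gene from 1 to 0 under all 3 thresholds. At a fold of 5 the BATF peaks went from 49 to 23 in control and from 26 to 13 with RA. The kept share of BATF control peaks was 40.8% when an overlap was required (whole list 54.4%), and the share of RARα peaks with RA near BATF went from 100% to 0% at 1 kb or with an overlap. The median RA to control fold ratio at nearest BATF peaks was 0.912 (17 of 27 lower, whole list 0.868). It was 1.14 when each control peak took the RA peak of highest fold within 5 kb (13 of 27 lower). That pairing picks the highest fold on the RA side only, so by construction no ratio could be lower than at the nearest peak. At nearest peaks the median ratio was 0.895 in FPM and 0.985 without the constant in the fold, and for overlapping pairs the median fold ratio was 0.804. The depth-limited share and the pairing by summit were chosen after seeing the data. No RARα peak at these genes had a fold of 5, so no share could be given there. Motif content was not run. No paired analysis was possible because each condition has 1 list called on pooled files. At the RA depth an unchanged level would miss the cutoff at 4 of the 22 peaks not kept, 2 at Skil and 2 at Tgfbr2, and reach it at 18.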
